A study of Mus musculus with 9 samples.

Results

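Sox10, Foxd3, Erbb3, Fabp7, S100b and Mbp, genes of Schwann cells and peripheral glia, were followed across 9 Affymetrix arrays of the mouse urogenital sinus. The members were all probe sets annotated to 1 of these 6 symbols alone, and 17 of the 45101 probe sets on the array qualified: 8 for Mbp, 3 for Sox10, 2 each for Erbb3 and S100b, and 1 each for Foxd3 and Fabp7. The urogenital sinus is the fetal source of the prostate, the urethra and the lower vagina, and its mesenchyme is crossed by branches of the pelvic plexus. All mice were C57BL/6, and their mothers had been given 1 of 3 treatments from embryonic day 13 to 16, with corn oil as the carrier. These were bisphenol A (BPA), a building block of polycarbonate plastic that binds estrogen receptors weakly, at a dose of 20 µg/kg/day, the potent estrogen diethylstilbestrol (DES) at a dose of 0.2 µg/kg/day, and the oil alone as control. One array was made for each agent at 3 ages, embryonic days 17 and 18 (E17 and E18) and birth (P0), so an agent was represented by 3 arrays of different ages. Bladder, urethra and the sex ducts had been dissected away from tracts of males and females; the labels give no sex for an array and do not say how many fetuses or litters it pooled. The spread behind each p-value is therefore that of single arrays and can be technical in part. It also takes in any effect of an agent that differs between ages.

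Schwann cells arise from the neural crest and travel along growing axons. Sox10 is the transcription factor that specifies and maintains the peripheral glial lineage, and Foxd3 acts earlier in crest cells and their glial descendants. Erbb3 is the receptor through which Schwann cell precursors read axonal neuregulin, with Erbb2 as its signalling partner. Fabp7, a fatty acid binding protein, marks glial precursors, S100b is a calcium-binding protein of immature and mature Schwann cells, and Mbp is a protein of compact myelin. In pelvic organs most axons are thin autonomic fibres whose Schwann cells never form myelin. Several of the 6 genes are also made outside glia: Sox10 is also made in melanocytes, S100b in cartilage and fat cells and Erbb3 in epithelia.

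No glial probe set differed between agents or between ages at the threshold used, a Benjamini-Hochberg adjusted p of 0.05 in a limma model of agent and age fitted to all 23798 probe sets that passed a filter on low signal. Of the 17 probe sets, 13 passed that filter, and every gene kept at least 1. Between agents, the BPA arrays lay wholly below the control arrays for Erbb3 and 2 Mbp probe sets, where 5.1% of all tested probe sets did so, and the DES arrays for 1 Sox10 and the same 2 Mbp probe sets, where 4.99% did. BPA lay wholly below DES for Erbb3 and 1 Mbp probe set (6.7% of all) and wholly above it for another of Mbp (5.34%). In the deposited values, before normalisation, the arrays overlapped for the Sox10 probe set and for this last one of Mbp. Between ages, the largest estimate was a lower Fabp7 signal at P0 than at E18 on the control and BPA arrays, which the DES P0 array did not share. In bulk tissue, fewer glial cells and less RNA per glial cell cannot be told apart.

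Promoter sequence from RefSeq (build GRCm38.p6, 250 bases before to 50 after the annotated start) was held for 3 of the 6 genes and is shown to set the crest regulator Foxd3 beside the precursor and immature glial genes Fabp7 and S100b. Capitals mark, on either strand, the SOX core ACAAT, the longer SOX core ACAAAG and the CCAAT box, which do not overlap each other here. The windows are chr4:99656049-99656348 for Foxd3, chr10:57784673-57784972 for Fabp7 and chr10:76253586-76253885 for S100b, all on the plus strand.
Foxd3: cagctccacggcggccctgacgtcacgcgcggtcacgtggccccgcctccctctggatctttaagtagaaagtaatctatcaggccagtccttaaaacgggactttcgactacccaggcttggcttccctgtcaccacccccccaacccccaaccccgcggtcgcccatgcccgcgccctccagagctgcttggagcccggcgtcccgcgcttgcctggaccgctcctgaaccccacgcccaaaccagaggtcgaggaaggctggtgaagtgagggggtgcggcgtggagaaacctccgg
Fabp7: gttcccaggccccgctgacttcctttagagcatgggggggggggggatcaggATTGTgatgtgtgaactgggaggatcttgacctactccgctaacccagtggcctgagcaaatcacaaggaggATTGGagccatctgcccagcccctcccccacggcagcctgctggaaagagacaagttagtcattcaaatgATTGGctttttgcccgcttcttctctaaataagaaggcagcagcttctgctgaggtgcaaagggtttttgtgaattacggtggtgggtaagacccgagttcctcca
S100b: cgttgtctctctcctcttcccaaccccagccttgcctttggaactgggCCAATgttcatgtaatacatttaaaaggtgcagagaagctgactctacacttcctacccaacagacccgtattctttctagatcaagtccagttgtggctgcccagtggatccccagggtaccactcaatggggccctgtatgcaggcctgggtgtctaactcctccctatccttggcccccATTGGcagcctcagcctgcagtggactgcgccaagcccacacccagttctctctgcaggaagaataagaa

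The Fabp7 window held 1 match to ACAAT, as its reverse complement ATTGT at position -198 from the start, and 2 to CCAAT, at -126 and -56. The S100b window held 2 CCAAT matches, at -202 and -20, and no SOX core. The Foxd3 window held 0 matches to any of the 3 and was the richest in G and C, at 65.7% against 54.0% for Fabp7 and 53.7% for S100b. Among all 32851 RefSeq promoter windows, 31.0% held ACAAT, 18.7% ACAAAG and 37.4% CCAAT on either strand, and the median G and C content was 52.7%. These matches describe letters, not binding sites.

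Signals below are deposited intensities after quantile normalisation between arrays, in arbitrary units, and each value is read against the same probe set on other arrays, not against another probe set. Means are ± SD over the 3 arrays of an agent, and log2 differences, taken on log2(signal + 5.46), are ± SE from the model with a 95% interval.

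The BPA P0 array stood apart in markers of other tissues. The 9 gonad markers summed to 3669 there against 544 to 639 on the other 8 arrays, with Hsd3b1, a steroid dehydrogenase gene, at 886.5 there and 4.27 to 10.4 elsewhere. The 8 markers of squamous epithelium summed to 23177 there, 6721 and 11907 on the other BPA arrays, 4984 to 6180 on the DES arrays and 3850 to 4697 on the control arrays. The part of such material in the glial signals was not tested, and values without the BPA P0 array, or at each age, are given beside results that rest on it.

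Sox10 was measured by 3 probe sets that ranked the arrays differently. On 1451689_a_at, the representative probe set by mean signal, the control arrays read 218, 282 and 168 at E17, E18 and P0, the DES arrays 171, 144 and 189.8, and the BPA arrays 163, 195 and 318. After normalisation the BPA P0 array was the highest of the 9 and the control E18 array the next, and all 3 agents overlapped. As deposited, the BPA P0 array read 201.6, below control E17 (243.8), control E18 (283.8) and DES P0 (210.0). The mean was 223 ± 57.0 in controls, 168 ± 23.0 after DES and 225 ± 82.1 after BPA, with log2 differences of -0.37 ± 0.25 for DES (interval -0.94 to 0.19, limma adjusted p = 0.854) and -0.01 ± 0.25 for BPA (interval -0.57 to 0.55, adjusted p = 0.997). The value near 0 for BPA rests on its P0 array. Against the control array of the same age, BPA lay at -0.41 at E17, -0.52 at E18 and 0.90 at P0. DES lay at -0.34, -0.94 and 0.17.

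The second Sox10 probe set, 1424985_a_at, read 159.5, 145 and 165 on the control arrays, 119, 143 and 139.7 on the DES arrays, and 142, 179 and 117 on the BPA arrays. Here the BPA P0 array was the lowest of the 9, where on the first probe set it was the highest after normalisation. After normalisation the DES arrays lay below the control arrays without overlap (log2 difference -0.22 ± 0.17, interval -0.61 to 0.17, limma adjusted p = 0.871). As deposited they overlapped, with DES P0 at 155.6 and control E18 at 145.9. The third, 1425369_a_at, lay just under the filter with signals of 24.9 to 67.2, and there too the BPA P0 array (33.2) was below the control P0 array (67.2). Over the 9 arrays the first and second probe sets had a Pearson r of -0.26, given as a description.

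Among the 13 tested glial probe sets, the change of the BPA difference with age was the largest for the first of Sox10, at 0.66 ± 0.24 log2 units per age step (limma unadjusted p = 0.0268, adjusted p = 0.529), because the BPA array lay below its control by 0.41 at E17 and 0.52 at E18 and above it by 0.90 at P0. Leaving out the BPA P0 array gave 0.32, in a fit whose age terms are shared with the DES arrays. The BPA differences from control that were left, -0.41 at E17 and -0.52 at E18, did not rise. Leaving out the control P0 array gave -0.16. For the second Sox10 probe set it was -0.16 ± 0.21 (adjusted p = 0.872). The 8 listed melanocyte genes, of another cell type that makes Sox10, summed to 773 to 1033 on the control arrays, 714 to 1033 on the DES arrays and 787 to 1018 on the BPA arrays. Of these genes 5 passed the filter, and Kit, whose signal is given below, made up a large part of the sum. The part of melanocytes in the Sox10 signal was not tested.

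Foxd3 varied little. Its probe set 1422210_at read 152, 133 and 171 on the control arrays, 146, 159.5 and 187 on the DES arrays and 167, 139 and 165 on the BPA arrays, and every agent's range overlapped the others. The mean was 152 ± 18.9 in controls, 164 ± 20.9 after DES and 157 ± 15.7 after BPA. The log2 difference was 0.11 ± 0.14 for DES (interval -0.20 to 0.43, limma adjusted p = 0.925) and 0.05 ± 0.14 for BPA (interval -0.26 to 0.37, adjusted p = 0.960). By age, Foxd3 was higher at P0 than at E18 by 0.27 ± 0.14 (interval -0.04 to 0.59, adjusted p = 0.428), with P0 arrays at 165 to 187 and E18 arrays at 133 to 159.5. As deposited these ages overlapped, with BPA P0 at 105.85, below the E18 arrays (132.4 to 163.17). The share of all probe sets with P0 wholly above E18 was not counted.

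**Figure D1:**
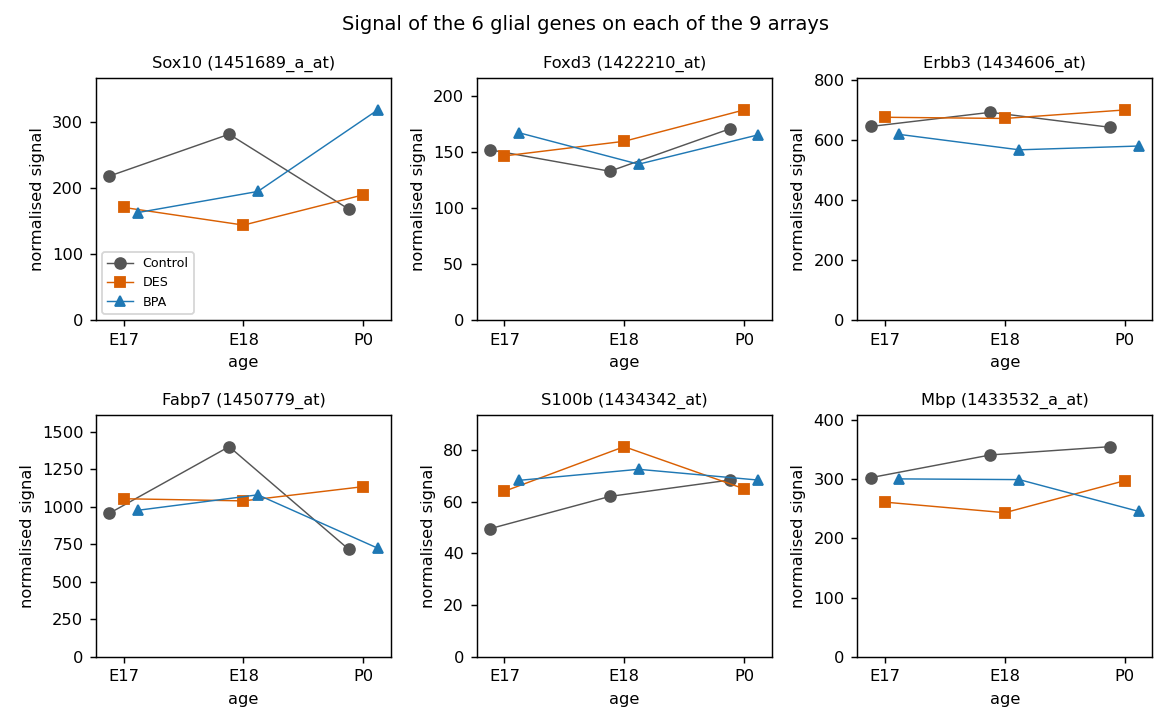
Normalised signal (vertical axis, arbitrary units, from 0) of the representative probe set of each of the 6 glial genes at E17, E18 and P0. Each point is 1 array and lines join the arrays of an agent. The BPA P0 array stands highest for Sox10 (318), which it did not in the deposited values. The BPA arrays lie lowest for Erbb3 (566 to 617), and the control and BPA arrays drop at P0 for Fabp7 (715 and 724).

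Erbb3, the neuregulin receptor, read 644, 691 and 641 on the control arrays, 674, 670.4 and 699 on the DES arrays, and 617, 566 and 579 on the BPA arrays (1434606_at). The 3 BPA arrays were the lowest of the 9 and overlapped neither the control nor the DES arrays. BPA lay wholly below control for 5.1% of all tested probe sets and wholly below DES for 6.7%. The share with both was not counted. The mean was 587 ± 26.7 after BPA against 659 ± 28.1 in controls and 681 ± 15.3 after DES. The log2 difference was -0.16 ± 0.09 against control (interval -0.37 to 0.05, limma adjusted p = 0.744) and -0.21 ± 0.09 against DES (interval -0.42 to 0.00, unadjusted p = 0.0477, adjusted p = 0.675), and DES and control differed by 0.05 ± 0.09 (interval -0.16 to 0.26, adjusted p = 0.947). Without the BPA P0 array the difference from control was -0.15. The second Erbb3 probe set, 1452482_at, read 3.58 to 14.6 over the 9 arrays, near the pseudocount, and was not tested.

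Erbb3 is also an epithelial gene. The 11 markers of simple epithelium (Epcam, Cdh1, Krt8 and others) summed to 14160 to 16914 on the BPA arrays, 13150 to 14673 on the DES arrays and 12458 to 13741 on the control arrays. Such sums weigh bright genes most. By gene, 9 of the 11 lay above control after BPA and 2 below, with a median log2 difference of 0.05. After DES the split was also 9 above and 2 below, with a median of 0.08. Over all genes the median was 0.01 after BPA and 0.02 after DES, and 52.3% and 56.6% lay above. The largest differences after BPA were those of Krt18 (0.45 ± 0.11) and Krt8 (0.35 ± 0.09), which were 0.17 ± 0.11 and 0.19 ± 0.09 after DES. The part of epithelium in the Erbb3 signal was not tested. Of the 5 listed partners of Erbb3, 3 passed the filter and 0 were past the threshold in any comparison (2 had a limma unadjusted p under 0.05 after DES). Erbb2, its signalling partner, read 303 to 421 on the control arrays, 349.5 to 435 on the DES arrays and 339.7 to 415 on the BPA arrays. Nrg2, a neuregulin, read 94.7 to 120.4 in controls and 134 to 145 after DES (log2 difference 0.42 ± 0.15, limma adjusted p = 0.836), and Egfr had a log2 difference of 0.31 ± 0.12 after DES (adjusted p = 0.836). Nrg1 and Erbb4 were below the filter.

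Fabp7 had its widest spread at E18 and P0. On 1450779_at the control arrays read 956, 1401 and 715 at E17, E18 and P0, the BPA arrays 977, 1080 and 724, and the DES arrays 1054, 1039 and 1134. The control and BPA P0 arrays were the lowest of the 9, and the DES arrays stayed within 1039 to 1134 at all 3 ages. Between E18 and P0 the log2 difference over the agents was -0.47 ± 0.17 (interval -0.84 to -0.10, limma unadjusted p = 0.0186, adjusted p = 0.293). Leaving out single arrays or changing other settings moved it between -0.71 and -0.27 (adjusted p 0.0383 to 0.716). It was past the threshold only without the DES P0 array, at -0.71, in a fit that called 643 (2.7%) of all probe sets and 1 of the 13 glial ones. It was -0.27 without the control E18 array, -0.30 without the control P0 array and -0.40 without the BPA P0 array. The change of the DES difference with age was 0.26 ± 0.19 per age step (adjusted p = 0.796).

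By agent, the mean Fabp7 signal was 1024 ± 348 in controls, 1076 ± 51.1 after DES and 927 ± 183 after BPA. The log2 difference was 0.12 ± 0.17 for DES (interval -0.25 to 0.50, limma adjusted p = 0.929) and -0.11 ± 0.17 for BPA (interval -0.48 to 0.26, adjusted p = 0.916). All 3 agents overlapped.

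S100b was dim. On 1434342_at the control arrays read 49.5, 62.0 and 68.3, the DES arrays 64.0, 81.2 and 64.97 and the BPA arrays 68.2, 72.5 and 68.3. The control E17 and E18 arrays were the lowest, and the control P0 array lay within the range of both treated groups. The log2 difference was 0.21 ± 0.19 for each agent, with intervals of -0.22 to 0.65 for DES and -0.22 to 0.64 for BPA (limma adjusted p = 0.888 and 0.846). The other probe set, 1419383_at, ran from 3.61 on the BPA E17 array to 68.2 on the BPA P0 array and was below the filter. Fat cells also make S100b, and the 6 fat cell markers on the array summed to 832 to 1275 in controls, 1029 to 1243 after DES and 1236 to 1756 after BPA. The 10 cartilage markers summed to 882 to 1016, 913 to 953 and 905 to 1028. The part of either tissue in the S100b signal was not tested.

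Mbp was read by 8 probe sets, of which 7 were tested. By Affymetrix naming, those ending in _x_at and _s_at can also bind transcripts of other genes, and those ending in _a_at bind several transcripts of the same gene. On 1433532_a_at the control arrays read 302, 341 and 355, the DES arrays 261, 243 and 297, and the BPA arrays 300.1, 299 and 245. All 3 control arrays lay above all 6 treated arrays, by as little as 302 against 300.1 at E17. Of all tested probe sets, 5.1% had BPA and 4.99% had DES wholly below control. The share with both was not counted. The mean was 332 ± 27.1 in controls, 267 ± 27.5 after DES and 281 ± 31.4 after BPA. The log2 difference was -0.31 ± 0.14 for DES (interval -0.62 to 0.00, limma adjusted p = 0.836) and -0.24 ± 0.14 for BPA (interval -0.55 to 0.07, adjusted p = 0.746). Without the BPA P0 array, the lowest of the BPA arrays here, the BPA difference was -0.08.

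A second Mbp probe set, 1419646_a_at, had the same order, with controls at 204, 220.3 and 237, DES arrays at 166, 195 and 163, and BPA arrays at 188, 197 and 177. Again no treated array reached a control array, a joint pattern whose share over all probe sets was not counted. The log2 difference was -0.33 ± 0.13 for DES (interval -0.63 to -0.04, limma unadjusted p = 0.0316, adjusted p = 0.836) and -0.23 ± 0.13 for BPA (interval -0.52 to 0.07, adjusted p = 0.744), or -0.19 without the BPA P0 array. Both comparisons use the same 3 control arrays, so they are not independent of each other. These 2 probe sets had a Pearson r of 0.68 over the 9 arrays, the highest of the 21 pairs of Mbp probe sets, whose median r was 0.25.

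The other Mbp probe sets did not share that order. On 1425264_s_at the controls read 242 to 252, the DES arrays 197 to 244 and the BPA arrays 219.5 to 242, with log2 differences of -0.15 ± 0.12 and -0.10 ± 0.12. On 1456228_x_at the BPA arrays read 97.4, 117 and 94.0 against 115, 144 and 145 in controls and 124 to 139 after DES, which gave -0.37 ± 0.16 for BPA (limma unadjusted p = 0.0412, adjusted p = 0.641), or -0.26 without the BPA P0 array, and -0.04 ± 0.16 for DES. On 1451961_a_at it was DES that read low, at 67.6 to 81.6 against 81.0 to 99.2 in controls and 82.5 to 110.4 after BPA.

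The 2 remaining tested probe sets varied most among the 7 tested ones of Mbp. On 1436201_x_at the control P0 array read 134 and the DES E18 array 50.3, with log2 differences of -0.41 ± 0.28 for DES and -0.40 ± 0.28 for BPA. On 1425263_a_at the treated arrays read higher on average, by 0.19 ± 0.23 after DES and 0.31 ± 0.23 after BPA, and the BPA E17 array was the highest, at 114. Counted over the tested Mbp probe sets, 6 of 7 lay below control after DES (5 with deposited values) and 5 of 7 after BPA (6 with deposited values), and 0 passed. Over all 13 tested glial probe sets 8 lay below after DES and 9 after BPA, and over all tested probe sets 49% and 50.6% did. The untested 1454651_x_at was lowest on the BPA P0 array (11.98) and highest on the control P0 array (58.8).

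**Figure D2:**
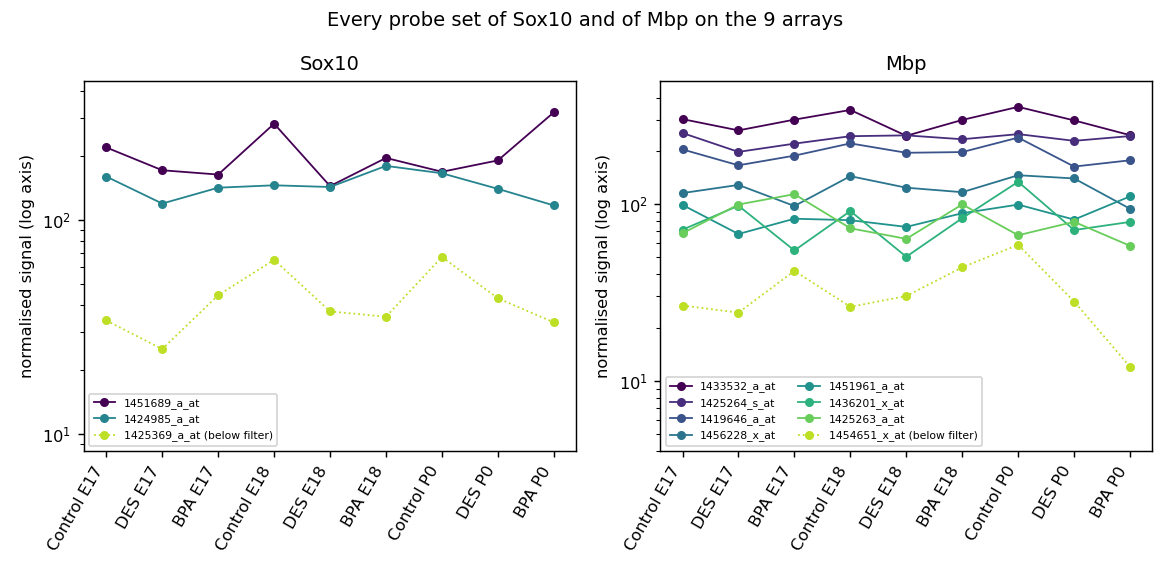
Normalised signal (vertical axis, log scale) of each of the 3 Sox10 and 8 Mbp probe sets on the 9 arrays, ordered by age and then by agent; dotted lines are probe sets below the filter. At BPA P0 the 2 tested Sox10 probe sets part, one at 318 and the other at 117, and Mbp 1433532_a_at, the Mbp line with the highest mean, peaks on the control array at each age.

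Counted over the 13 tested glial probe sets, 0 passed in the comparison of BPA with control, where 0% of all tested probe sets passed, 1813 of the 23798 (7.62%) had an unadjusted p under 0.05 in limma, and 1 glial probe set did. For DES against control, 0 of 13 passed with a background of 0% (1351 probe sets, or 5.68%, at an unadjusted p under 0.05, 1 glial). For BPA against DES, 0 of 13 passed with a background of 0% (1748, or 7.35%, 1 glial). BPA arrays lay wholly below control arrays for 3 of the 13 (Erbb3 and 2 of Mbp), against 5.1% of all tested probe sets, and wholly above for 0, against 5.04%. DES arrays lay wholly below control for 3 of the 13 (1 of Sox10 and 2 of Mbp), against 4.99%, and wholly above for 0, against 5.94%. BPA lay wholly below DES for 2 (Erbb3 and 1456228_x_at of Mbp, background 6.7%) and wholly above for 1 (1451961_a_at of Mbp, background 5.34%). Several of these probe sets read the same gene, so they are not separate observations. In the deposited values DES and control overlapped for Sox10 1424985_a_at, and BPA and DES overlapped for Mbp 1451961_a_at.

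**Figure D3:**
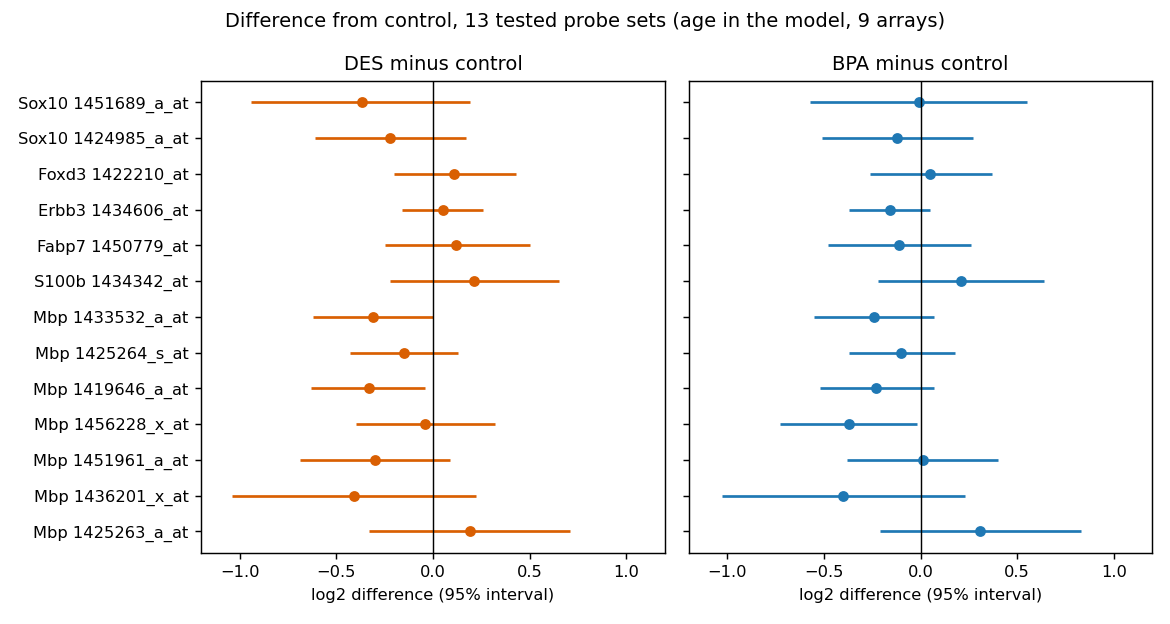
Log2 difference from control (horizontal axis) of the 13 tested glial probe sets after DES (left) and BPA (right), from the model of agent and age over 9 arrays; points are estimates and bars 95% intervals. After DES the interval of Mbp 1419646_a_at ends at -0.04 and after BPA that of Mbp 1456228_x_at at -0.02, while the other intervals reach or cross 0.

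By age, 0 of the 13 passed between E17 and E18 (background 0%, with 651 probe sets, or 2.74%, at an unadjusted p under 0.05 in limma and 0 of them glial), 0 between E17 and P0 (background 0.126%, 30 probe sets, with 4185, or 17.6%, at an unadjusted p under 0.05 and 0 of them glial) and 0 between E18 and P0 (background 0%, with 3257, or 13.7%, at an unadjusted p under 0.05, of which Fabp7 was the 1 glial). The change with age of the BPA difference passed for 0.0084% of all probe sets and 0 glial ones (2036, or 8.56%, had an unadjusted p under 0.05, and 1 of the 13 glial ones did, in Sox10). That of the DES difference passed for 0% (1746 probe sets, or 7.34%, at an unadjusted p under 0.05, 0 glial). Erbb3 was nearly level with age: the E17 mean was 645 ± 28.5, the E18 mean 643 ± 66.9 and the P0 mean 639.5 ± 59.97 (SD over 3 agents), and the log2 difference between E17 and P0 was -0.02 ± 0.09 (interval -0.23 to 0.19, adjusted p = 0.950). For Mbp 1433532_a_at that difference was 0.04 ± 0.14 (interval -0.27 to 0.35, adjusted p = 0.907). The other tested Mbp probe sets ran from -0.42 ± 0.23 (1425263_a_at) to 0.31 ± 0.28 (1436201_x_at). Of 23 tested glial genes other than the members, 14 lay higher at P0 than at E17 and 9 lower. Their median was 0.05, with 0 past the threshold and 3 at a limma unadjusted p under 0.05. Over the same ages Myh8, the perinatal skeletal myosin, rose by 2.39 ± 0.19 on these arrays (adjusted p = 0.00598), followed by Myl1, Mylpf and Tnnt3, the other genes of the skeletal muscle list past the threshold.

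The members correlated with one another in both directions over the 9 arrays. Among the 15 pairs of the 6 representative probe sets, Pearson r ran from -0.49 (Foxd3 and Fabp7) to 0.51 (Erbb3 and Fabp7), with a median of -0.09 and 6 pairs above 0. Of 13398 other genes, the 5 whose signal followed the representative Sox10 probe set most closely over the 9 arrays were Tfg, Wdr46, Thumpd3, BC052040 and Ppib, at r of 0.91 to 0.96. For Erbb3 they were Mir99ahg, Cct4, Atp6v1e2, Tnfaip1 and Pkp4, at r of 0.90 to 0.93. None of these 10 is a listed glial or neural crest gene, and with this many genes and 9 arrays the r values are a description only.

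The wider glial programme was read from 30 listed genes other than the 6, of which 25 had a probe set under that symbol and 23 passed the filter; the other listed symbols were not analysed here. Signals above the filter were present for Ngfr, the low-affinity neurotrophin receptor (673 to 809 over the 9 arrays), Pmp22, a myelin protein of many tissues (2624 to 2999), Gfra3, a GDNF-family receptor of Schwann cell precursors (273 to 306), Cdh19, a cadherin of the Schwann lineage (67.5 to 107), and Sox2 (223 to 372). Of genes tied to myelination, Egr2 read 24.5 to 67.8 and Mag, a myelin-associated glycoprotein, 50.2 to 88.6, and Pou3f1 was below the filter. Markers of the other cell types that make these genes were also measured. All 11 markers of simple epithelium and 4 of 6 of fat cells passed the filter. Of 8 melanocyte genes 5 passed, with Kit at 393 to 571 and Pmel at 68.2 to 180, while Mlana read 3.40 to 17.3 and Tyrp1 3.57 to 34.8. Of 10 cartilage genes 5 passed, with Col2a1 at 193 to 263 and Col9a1 at 245 to 337, while Matn1 read 3.25 to 23.7.

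After BPA, 9 of the 23 glial genes lay above control and 14 below, with a median log2 difference of -0.07, 0 past the threshold and 4 at a limma unadjusted p under 0.05, against a median of 0.01 over all genes and 52.3% of all genes above. Dhh, a hedgehog ligand of Schwann cells that Sertoli cells of the testis also make, had the largest difference, 0.55 ± 0.37 (limma adjusted p = 0.770), reading 225 on the BPA P0 array against 53.6 to 95.1 on the other 8; without that array it was -0.05 ± 0.23. Mal, a membrane protein of myelin and of epithelia, read 923 to 1118 after BPA and 733 to 829 in controls (0.40 ± 0.11, adjusted p = 0.456). Gfap, an intermediate filament of glia, had a difference of -0.39 ± 0.45 (adjusted p = 0.875), with 12.4 on the BPA P0 array and 53.9 to 89.1 on the others, and 0.36 ± 0.24 without that array. Without the BPA P0 array the split was 12 above and 11 below (median 0.04), and with deposited values, where the median of all genes was -0.24, it was 5 above and 18 below. After DES, 12 of 23 lay above and 11 below, with a median of 0.01 against 0.02 over all genes and 0 past the threshold (1 at an unadjusted p under 0.05). Gfap (0.34 ± 0.45), Dhh (0.33 ± 0.37) and Fgfbp3 (-0.31 ± 0.23) differed most. With deposited values, where the median of all genes moved to 0.11, the split after DES was 17 above and 6 below, with 12 of the 23 below that median.

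Markers of the autonomic neurons that glia accompany are given beside these. As background for the counts below, 52.3% of all tested genes lay above control after BPA (median 0.01) and 56.6% after DES (median 0.02). In limma, 7.62% of all tested probe sets had an unadjusted p under 0.05 after BPA and 5.68% after DES. Counts with deposited values carry the shift in the median of all genes given above. After BPA, 26 of 26 tested neuronal genes lay below control (25 without the BPA P0 array), with a median of -0.20, 0 past the threshold and 9 at a limma unadjusted p under 0.05, led by Th, tyrosine hydroxylase (-0.43 ± 0.13, limma adjusted p = 0.478), Slc18a2, the vesicular monoamine transporter (-0.37 ± 0.16), and Nefm, a neurofilament (-0.33 ± 0.10). After DES, 22 of 26 lay below (17 with deposited values), with a median of -0.15, 0 past the threshold and 6 at an unadjusted p under 0.05, led by Phox2a, a regulator of autonomic neurons (-0.45 ± 0.11, adjusted p = 0.836), Snap25 (-0.34 ± 0.15) and Npy (-0.32 ± 0.17). The 27 neuronal markers on the array summed to 23647 to 27286 on the control arrays, 22152 to 23908 on the DES arrays and 21164 to 23094 on the BPA arrays. The 25 glial genes summed to 11698 to 12467, 11807 to 11842 and 11665 to 12380. Sums weigh bright genes such as Pmp22 most. By gene, 14 of the 23 tested glial genes lay below control after BPA and 9 above (median -0.07). A lower neuronal list was already known from these arrays, so its direction here is not independent evidence, and the difference between the glial and neuronal lists was not tested. Skeletal muscle markers read lower after BPA as well: 10 of 12 lay below control, with a median of -0.64, 0 past the threshold (4 with deposited values) and 11 at a limma unadjusted p under 0.05, and their part in the glial and neuronal values was not tested. Among 9 tested neural crest regulators 7 lay below control after BPA and 6 after DES (9 and 2 with deposited values), with 0 past the threshold in limma and 2 and 0 at an unadjusted p under 0.05. After BPA the largest differences were those of Twist1, a mesenchymal transcription factor (-0.37 ± 0.11, adjusted p = 0.480), Tfap2b (-0.28 ± 0.12) and Tfap2a (-0.24 ± 0.13). After DES they were those of Snai2, a crest transcription factor (0.27 ± 0.13, adjusted p = 0.845), Tfap2b (-0.24 ± 0.12) and Ets1 (0.19 ± 0.12).

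**Figure D4:**
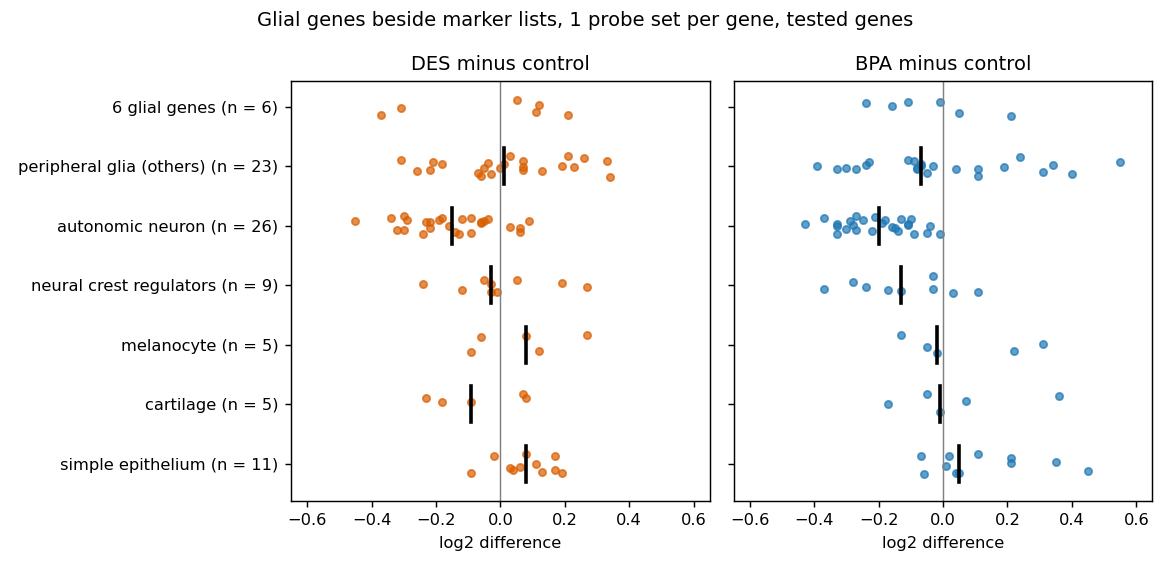
Log2 difference from control (horizontal axis) after DES (left) and BPA (right), 1 point per gene, for the 6 glial genes and for marker lists; black bars are list medians and n is the number of tested genes. The autonomic neuron points lie to the left of 0 for 26 of 26 genes after BPA and 22 of 26 after DES, and the other glial genes lie on both sides (9 of 23 above after BPA, 12 of 23 after DES). Over all tested genes, 52.3% lay above 0 after BPA and 56.6% after DES.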

How the data were processed

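Total RNA of 9 urogenital sinus samples was hybridised to Affymetrix arrays, 1 array per agent and age. The authors deposited linear intensities, 1 per probe set; MAS5 is named in the submitters' processing notes, with version and scaling target not given in the sources used here. Trimmed means of the deposited intensities ran from 157 (BPA P0) to 277 (DES E17), so arrays were quantile normalised over all probe sets. Values were put on a log2 scale after adding 5.46, the 10th percentile of normalised signal; fold changes of dim genes are understated. Of 36 pairs of arrays 0 were identical. Gene symbols came from the platform annotation, in which 34945 probe sets carry 1 symbol. Of these, 23798 had a mean log2 value of 5.54 (the 40th percentile) or more and were tested. A model of agent and age was fitted with limma 3.58.1 in R 4.3.3 (lmFit, eBayes with an intensity trend; 4 residual and 5.85 prior degrees of freedom), two-sided, with Benjamini-Hochberg adjustment over all tested probe sets. Change with age used a linear age term per agent (2 residual degrees of freedom). The scripts were tested on made-up data. The number of arrays limits the precision.

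Members and lists were chosen with earlier results of these data known. All member probe sets are described; from the glial, Erbb3 partner, neuronal and crest lists, the 3 genes with the largest difference from control, and of any list those past the threshold are named, markers of cell identity aside, which were named after their values were seen. Likeness to Sox10 and Erbb3 was ranked by Pearson r. Alternatives covered scaling, pseudocount, filter, 1 probe set per gene, the variance prior and leaving out each array.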

Additional observations from a re-analysis of the deposited data

How the results depend on the processing

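The count of glial probe sets past the threshold was 0 in each of the 7 counts (6 pairwise comparisons and change with age) under all 18 alternatives except 1: for P0 against E18, it was 1 of 13 (Fabp7) without the DES P0 array, where 2.7% of all probe sets passed, so leaving out single arrays gave 0 to 1 there and 0 to 0 elsewhere. The rise of the BPA difference in Sox10 1451689_a_at per age step turned to -0.16 without the control P0 array, and single arrays left out moved it between -0.16 and 1.47; the cause was not tested. The other 11 single differences had been picked for a limma unadjusted p under 0.05 or agents without overlap, so they could hardly turn. They kept their direction in every alternative that could be fitted. After BPA, Erbb3 ran from -0.43 to -0.11 and Mbp 1433532_a_at from -0.50 to -0.08. After DES, Mbp 1419646_a_at ran from -0.39 to -0.23 (limma adjusted p 0.707 to 1). Against control, direction was kept throughout by 8 of the 13 tested glial probe sets for BPA and 11 for DES. It was kept by 4 for BPA against DES. Between ages it was kept by 6 (E18 against E17), 3 (P0 against E17) and 5 (P0 against E18). For change with age it was kept by 2 (BPA) and 0 (DES). With deposited values the median of all genes was -0.24 for BPA and 0.11 for DES. Over all probe sets, P0 against E17 called 30, against 377 with deposited values, 0 without the intensity trend, 7 without a filter, 60 with the filter at the 60th percentile, 49 with a pseudocount of 20, 83 with 1 probe set per gene, and 0 to 1540 when single arrays were left out.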
